A study of Mus musculus with 27 samples.

Results

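The solute carriers are the largest set of membrane transporters in mammals, and 148 of the 8251 genes measured under a single symbol on these arrays belonged to them. A member was any gene whose probe set carried 1 platform symbol beginning with Slc and a family number. Slc2a1, Slc2a2 and Slc16a1 were not members, and where a member had several probe sets the brightest one, by its mean of the 27 arrays, was read. The members had 182 probe sets among them, and 29 had more than 1. By name, 3 are adaptor proteins and not carriers (Slc9a3r1, Slc9a3r2 and Slc4a1ap).

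Solute carriers move amino acids, sugars, nucleosides, vitamins, ions and metabolites across the plasma membrane and the membranes of organelles, by exchange, by coupling to an ion gradient or by facilitated diffusion. In the beta cell they deliver glucose and amino acids that drive insulin secretion, shuttle metabolites and nucleotides across the mitochondrial membrane, and set the ion gradients used in exocytosis. Myc is a transcription factor that drives cell growth, which raises the demand for amino acids, folate and nucleosides.

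RNA came from laser-captured pancreatic islets of transgenic mice. All mice, the untreated ones included, carried MycER and BclXL transgenes, both under an insulin promoter. MycER is a Myc protein whose activity depends on bound 4-hydroxytamoxifen, and BclXL is a survival protein. Of the 9 groups, 1 received no drug, 4 were taken at 2, 4, 8 or 24 h from a systemic 4-hydroxytamoxifen injection, 1 had daily doses for 21 days, and 3 followed such a course by 2, 4 or 6 days without drug. Each group had 3 arrays, and replicates are numbered without a statement that they are separate mice, so the p-values measure the spread between these samples. No group without MycER and none injected without the drug is named in the labels, so active Myc, the drug and the injection cannot be told apart. No age, strain or sex of the mice is used here.

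Signals are log2 values from RMA, a standard summary of the probes of each probe set. Levels are mean ± SD of 3 arrays, and differences are on the log2 scale ± SE from limma fitted on all 27 arrays. Calls required a Benjamini-Hochberg adjusted p under 0.05, with all 12422 non-control probe sets in the adjustment. Signals of different probe sets are on different scales and were not set against each other.

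The number of arrays limits the precision. Medians per array were 6.91 to 7.01, and replicates of the same group had correlations of 0.957 to 0.992 over the probe sets. Ins2 read 13.82 ± 0.07 in untreated islets, and the RNA of neighbouring cells varied between groups. The mean of the acinar markers was 11.29 ± 0.29 at 24 h, 7.25 ± 0.27 at 21 days and 8.78 ± 1.45 in untreated islets. Leukocyte markers were high on 4 arrays, namely 2 h replicate 1, 8 h replicate 3, and after withdrawal replicate 2 of day 2 and replicate 1 of day 6. The 18S ribosomal control read 8.63 to 10.21 in the 12 arrays of the long course and withdrawal and 9.61 to 12.48 in the 15 others. Bacterial control probe sets averaged 3.58 to 7.14 with a median of 3.97, and 6 members had a mean below that median. In bulk RNA of this kind, fewer cells of a type and less RNA per cell cannot be told apart.

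Over the 9 groups, 53 of the 148 members (35.8%) differed by the moderated F test, against 37.9% of all probe sets. By these shares solute carriers as a class varied about as often as the array as a whole. Here and below, a member counts once, by its brightest probe set. The share of all probe sets includes dimmer probe sets of the same genes and those without a single symbol. The group means of a member spanned 0.12 to 2.04 on the log2 scale, with a median span of 0.47, while the pooled SD within groups had a median of 0.18. The count was 11 of 24 amino acid transporters and 10 of 20 members grouped as mitochondrial carriers, the peroxisomal Slc25a17 among the 20. It was 11 of 24 members grouped with chloride, bicarbonate, sodium, calcium and phosphate transport, the 3 adaptors among the 24. It was 7 of 18 nucleoside, nucleotide sugar and fatty acid carriers, 5 of 16 metal carriers and 6 of 27 carriers of bile acids, organic ions and vitamins. Of the neurotransmitter, creatine and osmolyte carriers 2 of 10 differed. Of the 9 grouped as sugar carriers, the vitamin carrier Slc5a6 among them, 1 differed, Slc37a4. The smallest adjusted p belonged to Slc1a4, an exchanger of small neutral amino acids (7.2e-07), Slc35e4, a carrier whose cargo is not established (5.85e-06), and Slc25a53, a mitochondrial carrier of unknown cargo (1.24e-05). With array weights the count was 94, and with the 18S control as a covariate it was 20. Calls over all probe sets were not counted under alternative settings, here or below, so these changes cannot be called particular to solute carriers.

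**Figure D1:**
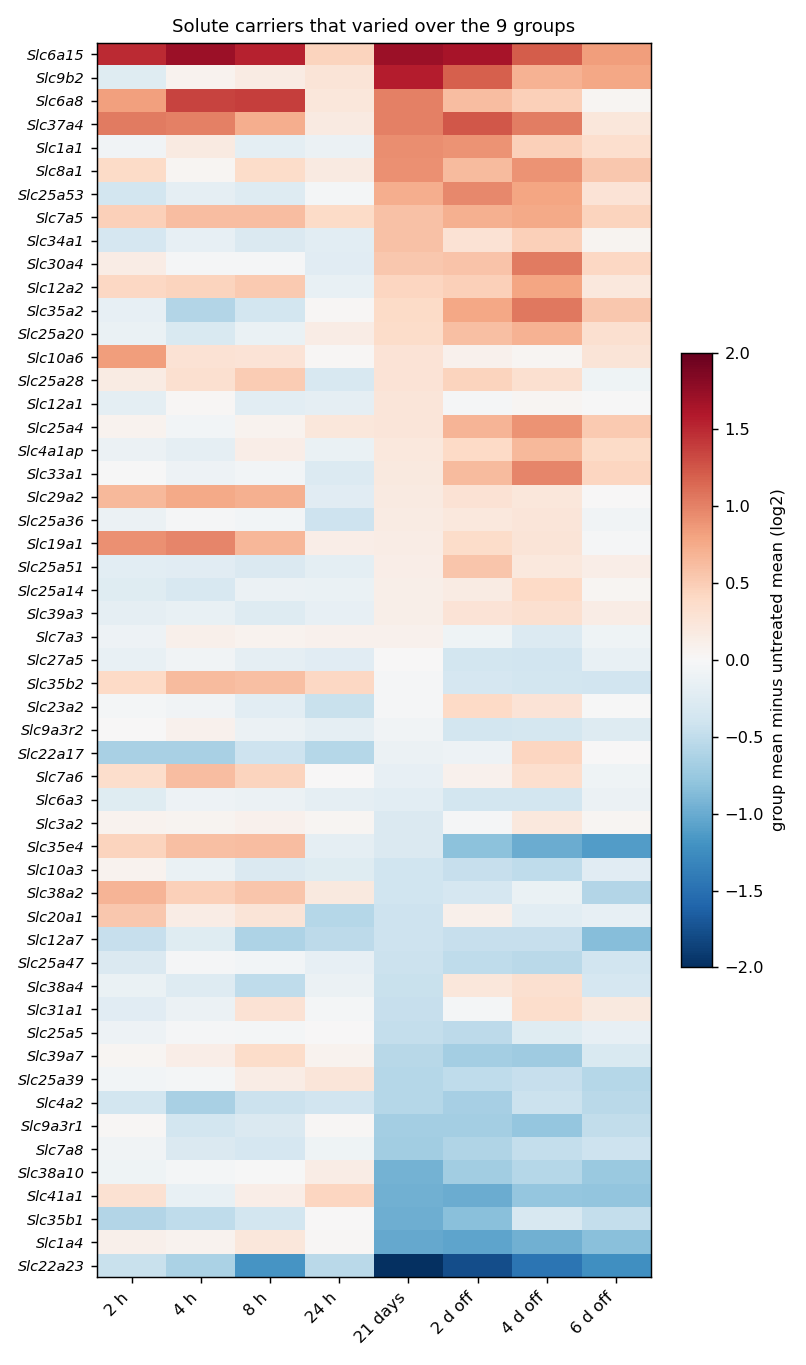
Group mean minus the untreated mean (log2, colour) for the 53 members that differed over the 9 groups, 1 row per gene ordered by the value at 21 days, columns in order of time. Slc6a15 reads 1.71 at 4 h and at 21 days at the top, and Slc22a23 reads -2.04 at 21 days at the bottom.

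The first hours after the injection ask which transporters respond soonest to MycER activation. Slc6a15, Slc19a1, Slc37a4 and Slc6a8 rose, and no member was called lower at 2, 4 or 8 h. Slc6a15 is a sodium-coupled carrier of branched-chain amino acids and proline, known chiefly from the brain. Slc19a1 is the reduced folate carrier, which brings folates into the cell. Slc37a4 carries glucose 6-phosphate into the endoplasmic reticulum, and Slc6a8 is the creatine transporter.

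Slc6a15 (probe set 161036_at) read 6.88, 6.97 and 7.42 at 2 h, 7.03, 7.47 and 7.40 at 4 h, and 6.77, 7.61 and 7.01 at 8 h, against 5.22, 5.42 and 6.14 in untreated islets. Every array of these times lay above every untreated array. The difference was 1.497 ± 0.29 at 2 h (2.82-fold, limma adjusted p = 0.0223), 1.71 ± 0.29 at 4 h (3.26-fold, adjusted p = 0.00564) and 1.54 ± 0.29 at 8 h (2.90-fold, adjusted p = 0.00818). At 24 h the arrays read 5.89, 6.33 and 5.90, so that 1 of them lay above all untreated arrays, and the difference of 0.45 ± 0.29 did not pass (adjusted p = 0.596).

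Slc19a1 (94419_at) read 10.08, 10.02 and 10.21 at 2 h, 10.02, 10.19 and 10.28 at 4 h and 9.79, 10.08 and 9.67 at 8 h, against 9.36, 9.10 and 9.09 in untreated islets. It was 0.92 ± 0.16 higher at 2 h (1.89-fold, adjusted p = 0.00829), 0.98 ± 0.16 at 4 h (adjusted p = 0.00355) and 0.66 ± 0.16 at 8 h (adjusted p = 0.0368). The groups did not overlap at any of these times. The other Slc19a1 probe set (162123_f_at) read 0.19 higher at 2 h and 0.44 higher at 4 h and did not pass (adjusted p = 0.65 and 0.314).

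Slc37a4 (97430_at) read 10.60, 10.46 and 10.62 at 2 h and 10.43, 10.57 and 10.62 at 4 h, against 9.48, 9.45 and 9.65 in untreated islets. The difference was 1.03 ± 0.22 at 2 h (2.05-fold, adjusted p = 0.0332) and 1.01 ± 0.22 at 4 h (adjusted p = 0.0253). At 8 h it was 0.73 ± 0.22 and did not pass (adjusted p = 0.0962), although all 3 arrays (9.96, 10.55 and 10.26) lay above the untreated ones.

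Slc6a8 (95625_at) read 8.78, 8.62 and 9.38 at 2 h, 9.20, 9.28 and 9.91 at 4 h and 9.80, 9.86 and 8.83 at 8 h, against 8.48, 7.85 and 7.99 in untreated islets. All 9 arrays were above the untreated ones. The difference at 2 h, 0.82 ± 0.28, did not pass (adjusted p = 0.242), while those at 4 h (1.36 ± 0.28, 2.56-fold, adjusted p = 0.0203) and 8 h (1.39 ± 0.28, 2.62-fold, adjusted p = 0.0128) did. The other Slc6a8 probe set (97748_at) read 5.41 at 4 h and 5.31 at 8 h, against 5.44 in untreated islets, and did not pass (adjusted p = 1 and 0.647).

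**Figure D2:**
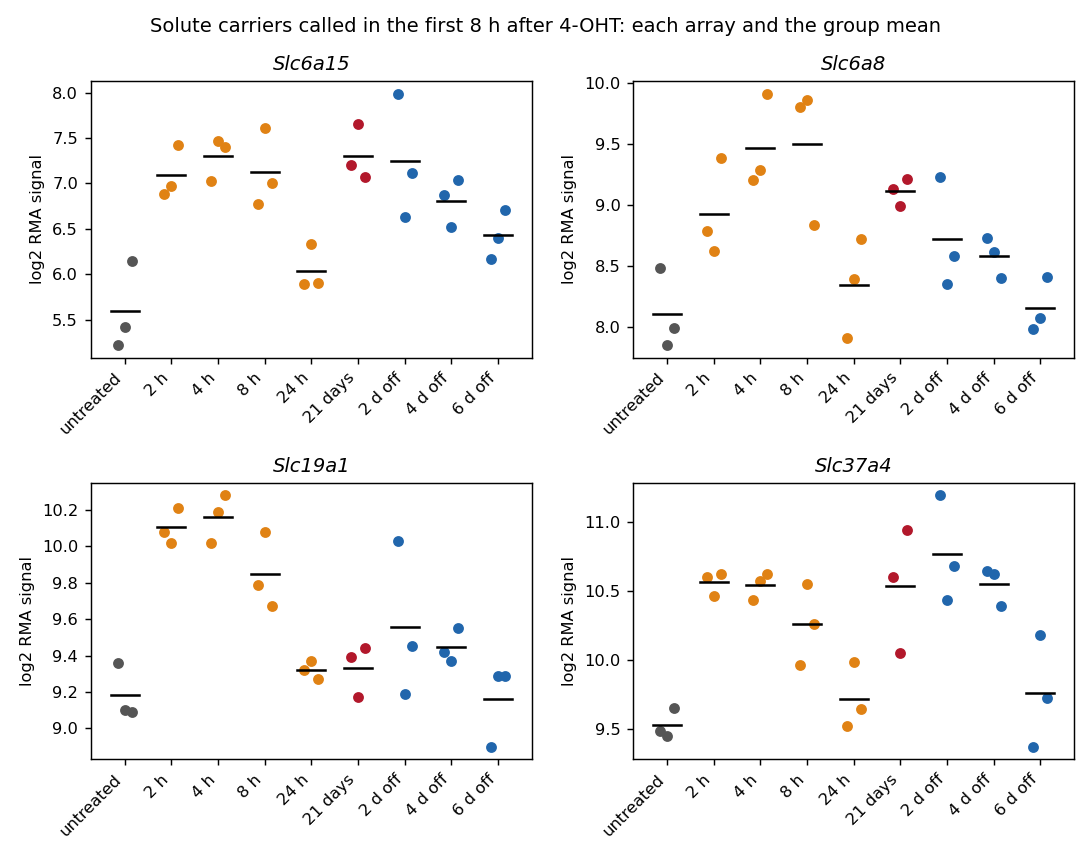
Log2 RMA signal of Slc6a15, Slc6a8, Slc19a1 and Slc37a4 on each of the 27 arrays (points) with the group mean (line), groups in order of time. All arrays at 2, 4 and 8 h lie above the untreated arrays for each gene, and 24 h lies close to untreated.

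In counts, 3 of 148 members (2.03%) were higher at 2 h and 0 lower, against 0.346% and 0.0483% of all probe sets. At 4 h 4 (2.70%) were higher and 0 lower, against 0.499% and 0.298% of all probe sets. At 8 h 3 were higher and 0 lower, against 1.07% and 0.628% (1.70% in either direction). At an unadjusted p under 0.05, 12 members were higher and 11 lower at 2 h, 9 and 7 at 4 h, and 16 and 20 at 8 h. In either direction these were 15.5%, 10.8% and 24.3% of members, against 11.7%, 8.34% and 15.9% of all probe sets. The median over all members was -0.08 at 2 h, -0.04 at 4 h and -0.07 at 8 h, against -0.07, -0.02 and -0.06 over all probe sets. Without any 1 of the arrays compared, Slc19a1 kept its call at 2 h and at 4 h, and Slc6a15 at 4 h. The call of Slc37a4 at 2 h ended without each of the 6 arrays in turn and without the 4 leukocyte-rich arrays, and at 4 h without untreated replicate 1 or 2 or replicate 2 or 3 at 4 h. That of Slc6a15 ended at 2 h without untreated replicate 1 or 2 or replicate 2 or 3 at 2 h, and at 8 h without untreated replicate 2. Slc6a8 lost its call at 4 h without untreated replicate 2 or 3 or replicate 3 at 4 h, and at 8 h without untreated replicate 2 or replicate 1 or 2 at 8 h, and at both times when the mean of its probe sets was read. Slc19a1 lost its call at 8 h without untreated replicate 2 or 3 or replicate 1 or 2 at 8 h, and at 2 h and 8 h when the mean of its probe sets was read.

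Leaving out 1 array changed these counts. At 2 h 1 member was called without untreated replicate 1, untreated replicate 2 or replicate 2 at 2 h. At 4 h 2 were called without untreated replicate 2 or without replicate 3 at 4 h. At 8 h 5 were called without untreated replicate 1, 0 without untreated replicate 2 and 1 without replicate 2 at 8 h. In fits of the 6 arrays alone no member was called at 2 h or 8 h. Acinar markers averaged 10.18 ± 0.69 at 2 h, 9.94 ± 0.28 at 4 h and 9.75 ± 1.13 at 8 h, against 8.78 ± 1.45 in untreated islets, and leukocyte markers 8.17 ± 0.53 at 2 h against 7.46 ± 0.19. No call of Slc6a15, Slc19a1, Slc37a4 or Slc6a8 at 2, 4 or 8 h ended with both marker means as covariates.

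Other members of interest did not pass in the first 8 h. Slc29a2, which takes up nucleosides by facilitated diffusion, read 0.65 ± 0.19, 0.76 ± 0.19 and 0.71 ± 0.19 higher at 2, 4 and 8 h (adjusted p = 0.163, 0.0666 and 0.0616). Slc7a5, the light chain of the main exchanger of large neutral amino acids, read 0.47, 0.62 and 0.61 higher with an SE of 0.17 (adjusted p = 0.256, 0.0888 and 0.0661). Its partner Slc3a2 had group means of 11.46, 11.45 and 11.48 at these times against 11.39 ± 0.09 in untreated islets. Slc38a2, a sodium-coupled neutral amino acid carrier that cells induce on amino acid shortage, was 0.68 ± 0.24 higher at 2 h (adjusted p = 0.26). Slc1a5, a glutamine exchanger, was 0.85 ± 0.48 higher at 2 h and -0.01 ± 0.48 at 4 h (adjusted p = 0.495 and 1). Slc7a11, the cystine and glutamate exchanger, read 3.23 to 3.41 in group means, and Slc7a1, a carrier of cationic amino acids, read 5.70 to 6.02 (adjusted p over the 9 groups 0.683 and 0.411).

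Genes of the amino acid response, which cells switch on when amino acids run short, were read from a list of 40 chosen with earlier results known, of which 32 were measured. At 2 h and 4 h 1 rose, Eif4ebp1, a repressor of translation initiation (1.16 ± 0.17 and 0.95 ± 0.17, adjusted p = 0.00325 and 0.00644). At 8 h 2 rose, Psat1 of serine synthesis (1.96 ± 0.28) and Eif4ebp1, and the list had a median of 0.13 against -0.06 over all probe sets. None was called lower at 2, 4, 8 or 24 h. Of the 31 measured carriers and pumps listed beside the members, 1 rose at 2 h and at 8 h, the lactate transporter Slc16a1 (0.98 ± 0.20 and 0.80 ± 0.20, adjusted p = 0.0275 and 0.0447).

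Promoters of Slc19a1, Slc37a4, Slc29a2 and Slc20a1 are shown because Myc with its partner Max binds the E-box CACGTG, whose letters read the same on both strands. RefSeq promoter windows of GRCm38.p6, 250 bases before and 50 after a start site, were found for 121 of the 148 members. None was found for Slc6a15 or Slc6a8, so the promoters shown do not cover all members called in the first hours. An E-box was present in at least 1 window of 19 members (15.7%), against 8.09% of the 27025 genes with windows. Of the 19, Slc12a7, Slc25a36 and Slc29a1 were called in later comparisons and the rest in none. Whether an E-box goes with a call was not tested, and the promoters shown do not stand for the family. The 250 bases before a start site listed for 3 members that changed in the first day hold none. Those of Slc20a1, a sodium-coupled phosphate carrier that was not called in any comparison, hold 2. All are on the plus strand, at chr10:77032489-77032738 (Slc19a1), chr9:44396696-44396945 (Slc37a4), chr19:5023756-5024005 (Slc29a2) and chr2:129198523-129198772 (Slc20a1), and capitals mark the E-boxes.
Slc19a1: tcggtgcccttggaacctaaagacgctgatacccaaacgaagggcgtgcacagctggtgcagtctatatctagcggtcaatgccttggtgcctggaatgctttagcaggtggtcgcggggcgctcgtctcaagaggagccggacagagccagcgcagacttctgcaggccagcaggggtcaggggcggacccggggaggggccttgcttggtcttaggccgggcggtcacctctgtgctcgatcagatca
Slc37a4: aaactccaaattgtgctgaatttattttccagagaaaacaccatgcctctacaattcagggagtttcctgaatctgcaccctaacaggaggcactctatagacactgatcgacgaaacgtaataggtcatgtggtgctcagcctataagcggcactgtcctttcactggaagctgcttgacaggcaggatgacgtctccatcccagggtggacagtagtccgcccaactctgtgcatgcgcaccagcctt
Slc29a2: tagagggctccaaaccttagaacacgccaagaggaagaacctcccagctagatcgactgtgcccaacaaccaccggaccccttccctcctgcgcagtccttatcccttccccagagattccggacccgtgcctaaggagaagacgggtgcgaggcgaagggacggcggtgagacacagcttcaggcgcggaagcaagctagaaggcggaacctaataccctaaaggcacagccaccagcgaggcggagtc
Slc20a1: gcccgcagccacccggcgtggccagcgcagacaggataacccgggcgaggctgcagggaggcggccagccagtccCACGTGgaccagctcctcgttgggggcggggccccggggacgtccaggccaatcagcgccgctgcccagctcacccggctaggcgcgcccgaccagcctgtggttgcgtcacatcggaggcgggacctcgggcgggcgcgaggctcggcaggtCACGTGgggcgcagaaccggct
In the Slc20a1 window the E-boxes begin 175 and 22 bases before the start site. Slc20a1 was 0.54 ± 0.23 higher at 2 h and did not pass (adjusted p = 0.369), with 8.66, 9.02 and 9.03 at 2 h against 8.43, 8.10 and 8.57 in untreated islets. The 7 letters GATGCAA, the core of the amino acid response element bound by Atf4 with a C/EBP partner, were in a window of 6 members (4.96%) on either strand, against 2.89% of genes. They stood 65 and 47 bases before the start in the Slc7a11 window, and 4 bases before it in that of Slc1a4.

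Day 1 was set against 8 h to ask which early changes had passed. By 24 h no member was called against untreated islets, with 1.21% of all probe sets higher and 0.169% lower (1.38% in all). At an unadjusted p under 0.05 limma had 2 members higher and 12 lower (9.46% of members, against 11.8% of all probe sets). With array weights 0 were called. Without untreated replicate 1 the count was 1. Slc19a1 read 0.14 ± 0.16, Slc37a4 0.19 ± 0.22 and Slc6a8 0.23 ± 0.28 above untreated (adjusted p = 0.807, 0.807 and 0.817). Slc22a17, a receptor-like organic ion carrier that binds lipocalin-iron complexes, read -0.58 ± 0.18 and Slc12a7, a potassium-chloride cotransporter, -0.52 ± 0.17 (adjusted p = 0.149 and 0.167).

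Against 8 h, 3 members fell and 0 rose at 24 h, against 0.700% of all probe sets lower and 1.09% higher (1.80% in all). Members lower and higher at an unadjusted p under 0.05 numbered 13 and 4 (11.5% of members, against 14.3% of all probe sets). Slc29a2 read 6.76, 6.52 and 6.67 at 24 h against 7.85, 7.66 and 7.24 at 8 h. It fell by 0.93 ± 0.19 (adjusted p = 0.0153). Slc6a8 read 7.91, 8.39 and 8.72 at 24 h, all below the 8 h arrays, and fell by 1.16 ± 0.28 (adjusted p = 0.0354). This call ended when the mean of its probe sets was read. Slc25a28, the mitochondrial iron importer mitoferrin 2, read 8.96, 8.95 and 8.78 at 24 h against 10.01, 9.72 and 9.42 at 8 h, and fell by 0.82 ± 0.20 (adjusted p = 0.0373). Neither Slc29a2 nor Slc25a28 was called against untreated islets at 8 h. Slc6a15 was -1.09 ± 0.29 and did not pass (adjusted p = 0.0616). Acinar markers averaged 11.29 ± 0.29 at 24 h and 9.75 ± 1.13 at 8 h, and the Gapdh 3′ signal exceeded the 5′ signal by 3.78 ± 0.11 at 24 h and 4.78 ± 0.24 at 8 h. With acinar and leukocyte covariates 3 members were called lower, Slc29a2 and Slc25a28 among them, and the call of Slc6a8 ended. No call was made with the Gapdh excess as a covariate, without replicate 1 at 8 h, or without replicate 2 or 3 at 24 h, and 1 without replicate 2 at 8 h or replicate 1 at 24 h. The count was 6 without the leukocyte-rich arrays and 5 with array weights.

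**Figure D3:**
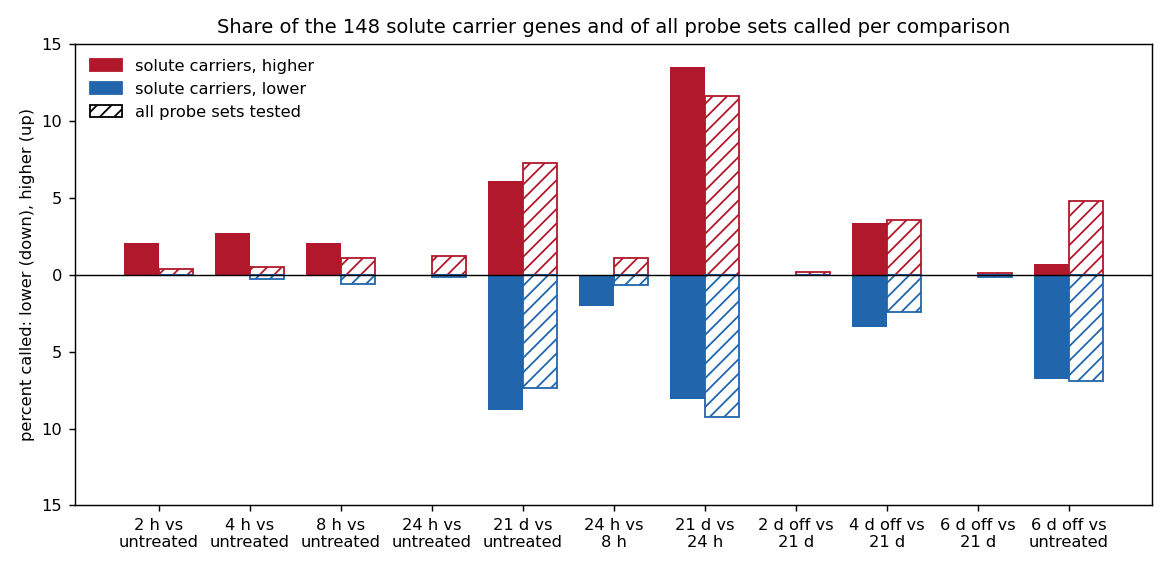
Percent of the 148 members called (filled) and of the 12422 probe sets called (hatched) in each comparison, higher above the zero line and lower below it. The filled bar exceeds the hatched one for rises at 2, 4 and 8 h, and the summed share called is largest for 21 days against 24 h, where 21.6% of members and 20.8% of probe sets were called.

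The long course asks which transporters differ after Myc has been active for weeks. After 21 days 9 members rose (6.08%) and 13 fell (8.78%) against untreated islets, close to the 7.27% and 7.37% of all probe sets. The 3 arrays of each group did not overlap for any of the 22, which mostly follows from the calls and is not separate support. By class, 3 amino acid carriers rose and 4 fell, 1 mitochondrial carrier rose and 3 fell, and of the ion transport group 3 rose and 2 fell, the adaptor Slc9a3r1 being 1 of the 2. The members' median was 0.01 and that of all probe sets 0.04. Without any 1 of the 6 arrays, 12 of the 22 calls held, those of Slc6a15, Slc37a4, Slc9b2, Slc34a1, Slc25a53, Slc1a1, Slc1a4, Slc22a23, Slc38a10, Slc35b1, Slc7a8 and Slc9a3r1. The other 10 calls each ended without 1 array or more: without untreated replicate 1 Slc8a1, Slc4a2, Slc41a1, Slc25a47 and Slc10a3, without untreated replicate 2 Slc6a8, Slc7a5, Slc25a39, Slc3a2, Slc4a2 and Slc10a3, and without untreated replicate 3 Slc6a8, Slc3a2 and Slc41a1. Slc6a8, Slc3a2 and Slc41a1 lost theirs without replicate 1 at 21 days, Slc25a5, Slc25a39, Slc4a2, Slc41a1, Slc25a47 and Slc10a3 without replicate 2, and Slc6a8, Slc7a5, Slc8a1, Slc4a2, Slc3a2, Slc41a1 and Slc10a3 without replicate 3. The acinar markers (7.25 ± 0.27 against 8.78 ± 1.45) and the 18S control (10.14 ± 0.08 against 11.08 ± 0.87) were lower at 21 days. With acinar and leukocyte markers as covariates 20 members were called, 18 of them shared, and with 18S 16, all shared.

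Slc6a15 and Slc9b2 had the largest rises of the 9, followed by Slc37a4 and Slc6a8. Slc9b2, a sodium and proton exchanger of intracellular membranes, read 6.65, 6.03 and 7.0 at 21 days against 5.20, 5.03 and 4.74 in untreated islets. The difference was 1.57 ± 0.24 (2.97-fold, adjusted p = 0.000261), and no array of the first day reached the 21 day arrays. Slc6a15 read 7.20, 7.65 and 7.07 at 21 days, 1.71 ± 0.29 above untreated (3.28-fold, adjusted p = 0.000691). Slc37a4 was 1.003 ± 0.22 higher (10.60, 10.05 and 10.94) and Slc6a8 1.003 ± 0.28 (9.13, 8.99 and 9.21), with adjusted p = 0.004 and 0.0203. Slc19a1, high in the first hours, read 9.39, 9.17 and 9.44 at 21 days, overlapping the untreated arrays (0.15 ± 0.16, adjusted p = 0.585).

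Slc1a1, a glutamate and cysteine carrier, rose by 0.92 ± 0.23 (5.80 ± 0.07 against 4.88 ± 0.14, adjusted p = 0.00993), while its other probe set (104748_s_at) read -0.24 and did not pass (adjusted p = 0.129), and the call ended when the mean of both was read. Slc8a1, the sodium-calcium exchanger of the plasma membrane, rose by 0.91 ± 0.25 (adjusted p = 0.0165), and with the acinar and leukocyte covariates read 0.63 and did not pass (adjusted p = 0.0694). Slc34a1, a phosphate carrier best known from the kidney, rose by 0.59 ± 0.12 (6.51 ± 0.04 against 5.92 ± 0.17, adjusted p = 0.00301). Slc25a53 rose by 0.72 ± 0.18 (9.36, 9.28 and 9.31 against 8.39, 8.50 and 8.89, adjusted p = 0.0088), and Slc7a5 by 0.59 ± 0.17 (adjusted p = 0.0203).

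The largest fall was in Slc22a23, an organic ion carrier of unknown cargo. It read 5.76, 5.87 and 6.06 at 21 days against 7.78, 7.62 and 8.42 in untreated islets, 2.04 ± 0.34 lower (4.12-fold, adjusted p = 0.000497). At 8 h it was -1.18 ± 0.34 and did not pass (adjusted p = 0.079). Slc1a4 read 8.24, 8.23 and 8.06 at 21 days against 9.65, 8.97 and 8.96, and fell by 1.02 ± 0.16 (2.02-fold, adjusted p = 0.000262). Slc38a10, of the sodium-coupled neutral amino acid family, read 9.85, 9.69 and 10.21 against 10.79, 10.96 and 10.85 and fell by 0.95 ± 0.16 (adjusted p = 0.000504). All 15 arrays of untreated islets and the first day lay above all 12 later arrays for Slc1a4 and Slc38a10. The share of all probe sets that separate in this way was not counted, so the separation cannot be called particular to them. The 18S control read 9.61 to 12.48 in these 15 arrays and 8.63 to 10.21 in these 12. The other Slc38a10 probe set (161710_r_at) read 2.86 to 3.03 in group means and did not pass in any comparison.

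Slc35b1, which exchanges ATP for ADP across the endoplasmic reticulum membrane, fell by 0.97 ± 0.19 (9.15 ± 0.25 against 10.13 ± 0.04, adjusted p = 0.00199). Slc25a39, a mitochondrial glutathione carrier, fell by 0.57 ± 0.15 and Slc25a5, an ADP and ATP exchanger of mitochondria, by 0.48 ± 0.13 (adjusted p = 0.0133 and 0.0138); the other 2 Slc25a5 probe sets read -0.06 and -0.29 and did not pass. Slc7a8, an exchanger of neutral amino acids, fell by 0.69 ± 0.16 (adjusted p = 0.00552), and Slc3a2, the heavy chain it shares with Slc7a5, by 0.28 ± 0.09 (adjusted p = 0.0474), a call that ended under quantile normalization, a trended and robust variance, the fit of the 6 arrays and the Gapdh and 18S covariates. Slc9a3r1, an adaptor that anchors carriers at the membrane, fell by 0.67 ± 0.15, and Slc4a2, a chloride and bicarbonate exchanger, by 0.57 ± 0.16 (adjusted p = 0.004 and 0.0218). Slc41a1, a magnesium carrier, fell by 0.96 ± 0.30 (adjusted p = 0.0385), a call that ended with the acinar and leukocyte covariates and without any 1 of the 6 arrays other than untreated replicate 2.

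Of the 32 amino acid response genes, 2 rose and 6 fell at 21 days against untreated islets (median -0.10, all probe sets 0.04). Those that rose were the stress-induced factor Atf3 (1.31 ± 0.34) and Psat1 (0.83 ± 0.28). The fall was largest in Nupr1, a small stress protein also made in acinar cells (-2.54 ± 0.59), and 5 of the 6 were tRNA synthetases, Nars (-1.15 ± 0.22) among them. Of the 31 other carriers and pumps 0 rose and 5 fell, with the beta cell glucose transporter Slc2a2 at -1.63 ± 0.42 and the calcium pump Atp2a3 at -1.45 ± 0.23 (adjusted p = 0.0114 and 0.000391).

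**Figure D4:**
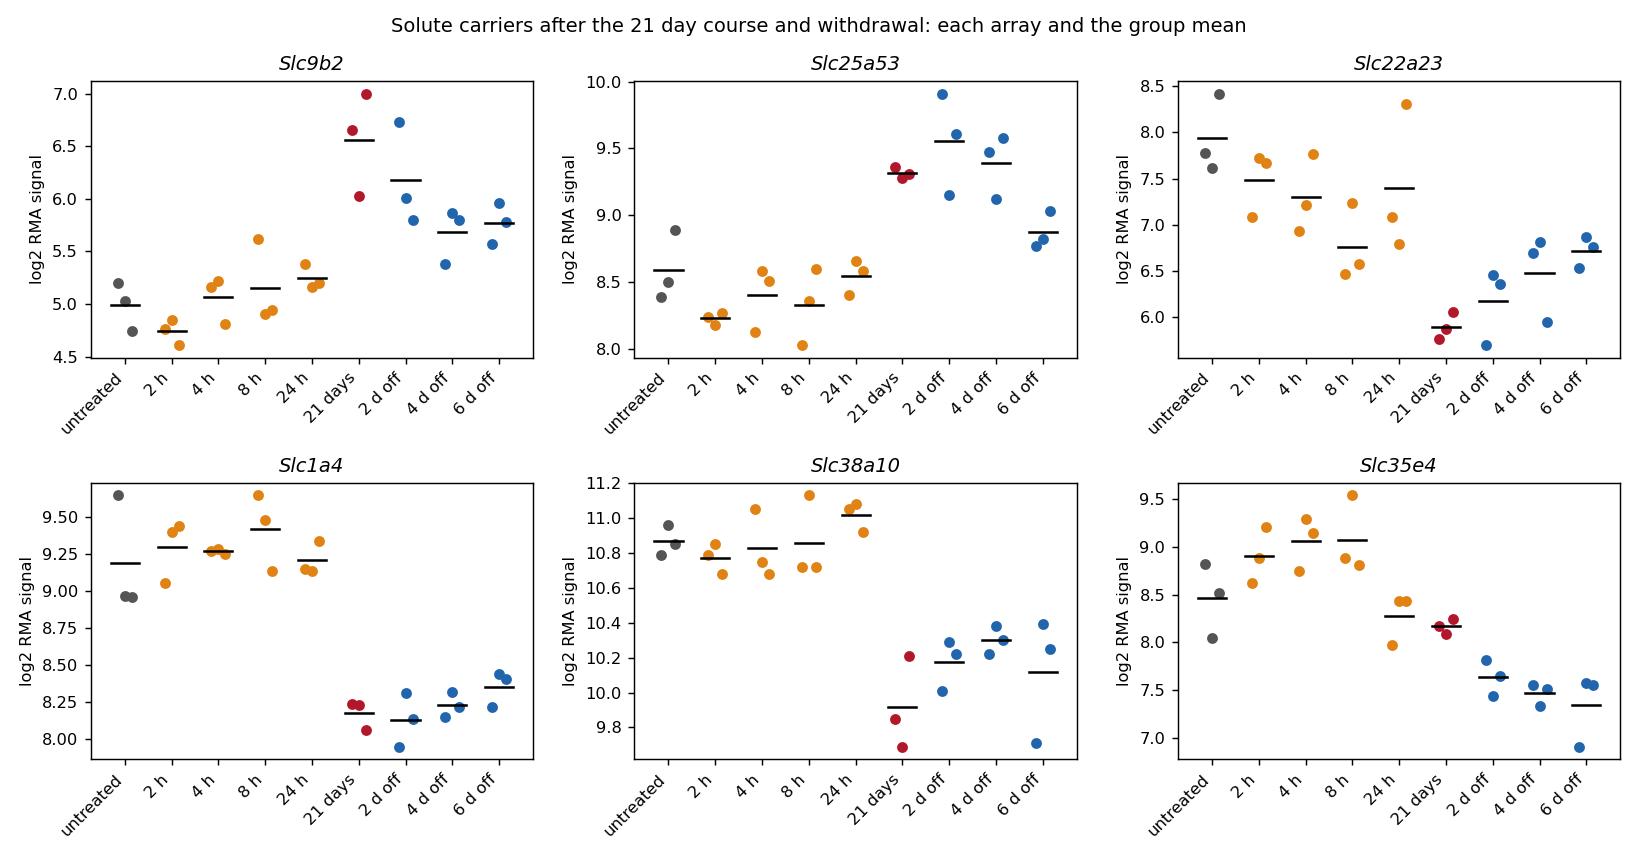
Log2 RMA signal of Slc9b2, Slc25a53, Slc22a23, Slc1a4, Slc38a10 and Slc35e4 on each of the 27 arrays (points) with the group mean (line), groups in order of time. Slc9b2 and Slc25a53 are high at 21 days, Slc22a23, Slc1a4 and Slc38a10 are low there, and Slc35e4 reads 7.35 in the mean at 6 days off against 8.46 in untreated islets.

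Set against 24 h, 20 members were higher (13.5%) and 12 lower (8.11%) at 21 days, with 11.6% and 9.23% of all probe sets. This comparison shares the 21 day arrays with the one above. Of the mitochondrial carriers 5 were higher and 3 lower, of the ion transport group 6 and 1 (the adaptor Slc9a3r1), and of the amino acid carriers 2 and 4. Besides genes already named, Slc30a4, a zinc carrier of vesicles, was 0.76 ± 0.20 higher (adjusted p = 0.0093) and Slc25a36, a mitochondrial carrier of pyrimidine nucleotides, 0.58 ± 0.14 (adjusted p = 0.00575). Slc25a28 was 0.58 ± 0.20 higher (adjusted p = 0.0434), a call that ended under median centring and without each of the 6 arrays in turn. Slc41a1 read 6.97, 6.97 and 6.59 at 21 days against 8.50, 8.18 and 8.02 at 24 h and was 1.39 ± 0.30 lower (2.62-fold, adjusted p = 0.00314). Slc2a5, the fructose transporter, was 0.81 ± 0.21 lower (8.22 ± 0.18 against 9.03 ± 0.17) and Slc25a11, the mitochondrial oxoglutarate carrier, 0.58 ± 0.15 lower (adjusted p = 0.00993 and 0.00972). Of the amino acid response genes 2 rose and 13 fell, with a median of -0.45 against 0.07 over all probe sets.

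The acinar marker mean was 7.25 ± 0.27 at 21 days and 11.29 ± 0.29 at 24 h. With acinar and leukocyte covariates 5 members were called, 4 of the 32 among them, and Slc41a1 read -0.13. With the 18S covariate 10 were called, and without replicate 3 at 24 h 20. Slc38a10, Slc34a1 and Slc25a39 held their calls with either covariate set.

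Withdrawal asks which transporters move once the drug is stopped. No member was called at 2 days off against 21 days by limma, where 0.153% of all probe sets were (0.145% higher and 0.00805% lower). Of the members, 7 were higher and 14 lower at an unadjusted p under 0.05 (14.2%, against 16.1% of all probe sets), and 4 were called with array weights. Without replicate 1 at 2 days off 1 was called. The smallest adjusted p was that of Slc27a5, a bile acid and fatty acid coenzyme A ligase (-0.37, 0.0845).

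At 4 days off 5 members rose (3.38%) and 5 fell against 21 days, with 3.58% and 2.42% of all probe sets (6.01% in all). Slc3a2 read 11.63, 11.54 and 11.63 at 4 days off against 11.09, 11.23 and 11.01 at 21 days. It rose by 0.49 ± 0.09 (adjusted p = 0.0104), and its level then lay above all 3 untreated arrays (11.29, 11.45 and 11.44). Slc31a1, the copper importer, rose by 0.81 ± 0.18 (9.06 ± 0.26 against 8.25 ± 0.17, adjusted p = 0.0174), Slc38a4, a carrier of neutral amino acids, by 0.77 ± 0.22 (adjusted p = 0.0415), Slc35b1 by 0.65 ± 0.19 (adjusted p = 0.0498) and Slc7a6, a partner of Slc3a2 in exchanging cationic and neutral amino acids, by 0.51 ± 0.15 (adjusted p = 0.0484). The other Slc7a6 probe set (99863_at) read -0.11 (adjusted p = 0.596), and the Slc7a6 call ended when the mean of both was read (0.20, adjusted p = 0.21) and without the leukocyte-rich or the erythroid-rich arrays.

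Slc9b2 fell by 0.88 ± 0.24 at 4 days off (5.38, 5.86 and 5.80 against 6.65, 6.03 and 7.0, adjusted p = 0.0392). Slc7a3, a carrier of cationic amino acids, fell by 0.37 ± 0.08, Slc27a5 by 0.39 ± 0.09, Slc6a18, of the family of neutral amino acid carriers, by 0.38 ± 0.10 and Slc39a4, a zinc importer, by 0.41 ± 0.12 (adjusted p = 0.0174, 0.0192, 0.0399 and 0.0434). The Slc39a4 call ended, among other settings, when the mean of its probe sets was read, under median centring and under a trended and robust variance. Slc6a15 was -0.50 ± 0.29 and Slc37a4 0.02 ± 0.22 against 21 days (adjusted p = 0.27 and 0.963). Slc25a4, the ADP and ATP exchanger of heart and muscle mitochondria, was 0.66 ± 0.20 higher and did not pass (10.91 at 4 days off against 10.25 at 21 days in the mean, adjusted p = 0.057). No call of this comparison held without each of its 6 arrays in turn. The count was 0 without replicate 1 at 4 days off, 3 without replicate 2 or 3 at 4 days off, 3, 2 and 16 without replicate 1, 2 or 3 at 21 days, 0 with the 18S covariate and 45 with array weights. The 18S control read 8.80 ± 0.21 at 4 days off and 10.14 ± 0.08 at 21 days.

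At 6 days off no member was called against 21 days by limma, with 0.274% of all probe sets called (0.0966% higher and 0.177% lower). At an unadjusted p under 0.05, 6 were higher and 14 lower (13.5% of members, against 13.8% of all probe sets). With array weights 16 were called. Slc34a1 read -0.53 ± 0.12 (adjusted p = 0.0638), Slc6a8 -0.96 ± 0.28 and Slc6a15 -0.88 ± 0.29 (adjusted p = 0.131 and 0.181).

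Set against untreated islets, 1 member was higher (0.676%) and 10 lower (6.76%) at 6 days off, with 4.79% and 6.93% of all probe sets. Slc35e4 read 6.91, 7.58 and 7.56 at 6 days off against 8.82, 8.05 and 8.52 in untreated islets and fell by 1.11 ± 0.22 (2.16-fold, adjusted p = 0.0029). Its 3 arrays at 21 days (8.17, 8.09 and 8.25) overlapped the untreated ones, and the differences at 2, 4 and 6 days off from 21 days were -0.53, -0.70 and -0.82, each with an SE of 0.22, and did not pass (adjusted p = 0.26, 0.0613 and 0.107). Slc12a7 read 9.51, 10.09 and 9.63 against 10.63, 10.47 and 10.69 and fell by 0.85 ± 0.17 (adjusted p = 0.00258).

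Several members called lower at 21 days were also called lower after 6 days without drug, in comparisons that share the untreated arrays. Slc1a4 read 8.22, 8.44 and 8.41, 0.84 ± 0.16 below untreated (adjusted p = 0.00175), Slc38a10 9.71, 10.39 and 10.25, 0.75 ± 0.16 below (adjusted p = 0.00381), and Slc22a23 6.53, 6.87 and 6.76, 1.22 ± 0.34 below (adjusted p = 0.021). Slc25a39, Slc9a3r1, Slc4a2 and Slc25a47, a mitochondrial carrier known from liver, were 0.57, 0.50, 0.54 and 0.38 lower (adjusted p = 0.0151, 0.0309, 0.034 and 0.0335). Slc25a17, a peroxisomal carrier of coenzyme A and other cofactors, fell by 0.39 ± 0.13 with overlapping arrays (adjusted p = 0.047). Slc9b2 was 0.78 ± 0.24 higher (adjusted p = 0.0382), and Slc6a15 read 6.17, 6.40 and 6.71, above all 3 untreated arrays, with a difference of 0.83 ± 0.29 that did not pass (adjusted p = 0.0712). Slc6a8 was 0.05 ± 0.28 and Slc37a4 0.23 ± 0.22 above untreated (adjusted p = 0.939 and 0.542).

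Of these 11 calls those of Slc1a4, Slc12a7, Slc35e4 and Slc38a10 held without any 1 of the 6 arrays. Without untreated replicate 1 there were 5 calls, without untreated replicate 2 there were 7 and without replicate 2 at 6 days off 7. The count was 7 without the leukocyte-rich arrays, of which 5 were shared: the calls of Slc22a23, Slc9b2, Slc25a17, Slc25a39, Slc25a47 and Slc4a2 ended. It was 4 with the 18S covariate. The split of 1 higher and 10 lower changed with the setting: it was 11 and 14 with array weights, 2 and 5 without the leukocyte-rich arrays, 4 and 5 without the 2 erythroid-rich arrays and 3 and 5 without replicate 1 at 6 days off.

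Slc4a1, the anion exchanger of red cells, read 9.76 in replicate 2 at 2 days off and 10.17 in replicate 1 at 6 days off, against 6.09 to 7.43 in the 25 other arrays. The mean of 5 measured erythroid markers, which do not include it, was 10.04 and 10.35 in the same arrays and 7.36 to 8.62 in the others. Slc11a1, a metal carrier of macrophage phagosomes, read 8.89 in replicate 1 at 2 h, 8.61 in replicate 1 at 8 h and 8.32 in replicate 1 at 6 days off, against 7.77, 7.39 and 7.32 in untreated islets. The leukocyte marker mean of these 3 arrays was 8.75, 7.93 and 8.73. It was 8.49 and 8.20 in replicate 3 at 8 h and replicate 2 at 2 days off, where Slc11a1 read 7.73 and 7.91. Neither was called in any comparison, and the adjusted p over the 9 groups was 0.597 for Slc4a1 and 0.206 for Slc11a1.

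**Figure D5:**
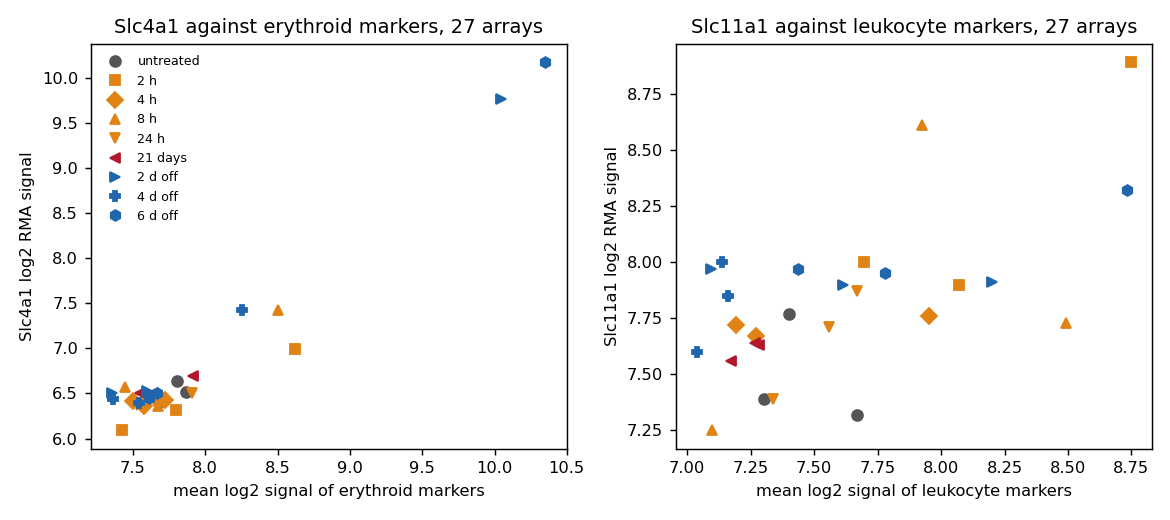
Log2 RMA signal of Slc4a1 against the mean of the erythroid markers (left) and of Slc11a1 against the mean of the leukocyte markers (right), 1 point per array, symbols by group. On the left, 2 arrays of the withdrawal groups stand apart, with Slc4a1 at 9.76 and 10.17.

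Among members not called over the 9 groups, the nucleoside carrier Slc29a1 read 10.95 to 11.55 in group means (adjusted p over the 9 groups 0.0986) and the mitochondrial citrate carrier Slc25a1 9.91 to 10.34 (0.433). Slc29a1 was still called 0.56 ± 0.195 higher at 21 days than at 24 h (limma adjusted p = 0.0452). That call ended under median centring and in most fits with 1 array left out. The iron importer Slc11a2 read 8.55 to 8.83 (0.563), the fatty acid carriers Slc27a2 and Slc27a4 4.70 to 4.90 and 7.71 to 8.13 (0.819 and 0.143), and the bicarbonate carrier Slc4a4 4.52 to 4.94 (0.0638). Slc25a20, the carnitine carrier that brings fatty acids into mitochondria, varied over the groups by the moderated F test (adjusted p = 4.16e-05). It read 8.44 at 21 days and 8.78 at 4 days off in the mean, against 8.08 in untreated islets. None of the 11 comparisons called it, but 4 days off was not compared with untreated islets.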

How the data were processed

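RNA of laser-captured islets, linearly amplified in 2 rounds, was hybridised to 27 single-colour mouse arrays of 12488 probe sets. The deposited values are log2 signals from RMA, per the submitters' processing notes, and were used as deposited. The sources used here give no version of RMA, and the files name no genome build, so the only coordinates given are those of the RefSeq promoter windows (GRCm38.p6). Symbols came from the platform annotation (10833 probe sets with 1 symbol), and all 148 members were found by gene ID in the RefSeq table of GRCm38.p6. The 66 control probe sets were left out.

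limma 3.58.1 in R 4.3.3 was fitted to 12422 probe sets with the 9 group means as coefficients (18 residual degrees of freedom), and 11 contrasts and the moderated F test were adjusted by Benjamini-Hochberg over all of them. The fit was tested on simulated data. Promoters were searched with Python 3.11.15 and pandas 2.3.3. The alternatives were other scalings, a filter on the 40% dimmest probe sets, array weights, a robust variance, fits of the compared arrays only, the replicate number as a block, averaging all probe sets of a gene, marker covariates, a 2-fold minimum and each array left out. Covariates of the Gapdh 3′ to 5′ difference and of 18S, and a fit without 2 erythroid-rich arrays, were added after seeing the data.

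The members and the gene lists were chosen with earlier results of these data known. Genes named were all called members of a comparison where a direction held 10 or fewer, otherwise the 10 largest whose arrays did not overlap, the 15 smallest p-values of the F test, a panel of known carriers, and up to 3 genes of a list; not all are printed.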

Additional observations from a re-analysis of the deposited data

Results flagged for a closer look

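For 3 members the effect against untreated islets differed between 24 h and 8 h by a test of that difference itself, the direct contrast of 24 h with 8 h in limma. The effect at 24 h minus that at 8 h was -0.93 for Slc29a2 (adjusted p = 0.0153), -1.16 for Slc6a8 (adjusted p = 0.0354) and -0.82 for Slc25a28 (adjusted p = 0.0373). All 3 arrays at 24 h lay below all 3 arrays at 8 h for each gene, which mostly follows from the calls and is not separate support. None of these calls held without each of the 6 arrays in turn. None was made in the fit of the 6 arrays alone or with the Gapdh covariate. The call of Slc6a8 also ended when the mean of its probe sets was read. Slc29a2 and Slc25a28 were not called against untreated islets at 8 h or at 24 h.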

How the results depend on the processing

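Of 88 calls of single members, 34 held without any 1 of their arrays, 18 held under every other setting apart from a 2-fold minimum, and 0 changed direction. With 1 array left out, the members called ranged from 1 to 2 at 2 h, 2 to 5 at 4 h, 0 to 5 at 8 h and 0 to 1 at 24 h against untreated, and from 16 to 23 at 21 days. They ranged from 0 to 3 for 24 h against 8 h, 20 to 29 for 21 days against 24 h, 0 to 1, 0 to 16 and 0 to 0 at 2, 4 and 6 days off against 21 days, 5 to 11 for 6 days off against untreated and 47 to 56 over the 9 groups.

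Array weights gave 5 for 24 h against 8 h, 52 for 21 days against 24 h, 4, 45 and 16 at 2, 4 and 6 days off against 21 days, 25 for 6 days off against untreated and 94 over the 9 groups. Fits of only the 6 arrays compared gave 0 at 2 h, 8 h, 24 h against 8 h and 6 days off against untreated. The 18S covariate gave 10 for 21 days against 24 h, 0 at 4 days off, 4 for 6 days off against untreated and 20 over the 9 groups. The Gapdh covariate gave 7 at 4 h, 5 at 8 h, 0 for 24 h against 8 h and 4 at 4 days off. Acinar and leukocyte covariates gave 7 at 8 h, 5 for 21 days against 24 h and 7 for 6 days off against untreated. A 2-fold minimum gave 6 at 21 days, 1 for 24 h against 8 h, 7 for 21 days against 24 h, 0 at 4 days off and 2 for 6 days off against untreated. Quantile normalization gave 5 at 4 days off, and averaging all probe sets of a gene 1 at 8 h. Without the leukocyte-rich arrays 6 were called for 24 h against 8 h and 7 for 6 days off against untreated, and without the erythroid-rich arrays 7 for 24 h against 8 h. Calls over all probe sets were not counted under these settings, and the cause of these changes was not tested.

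Deviations of same-numbered arrays of different groups had correlations of -0.46 to 0.51, with 36 of 108 pairs over 0.1. Their median was 0.0242, against -0.0133 for arrays of different numbers. Whether the numbers pair some of the samples cannot be told from these values. With the replicate block the members called were 3, 5, 3 and 0 at 2, 4, 8 and 24 h, 22 at 21 days, 3 for 24 h against 8 h, 30 for 21 days against 24 h, 0, 11 and 0 at 2, 4 and 6 days off against 21 days, 11 for 6 days off against untreated and 58 over the 9 groups. With the block the single calls of Slc3a2 at 21 days, of Slc25a28, Slc25a45 and Slc29a1 for 21 days against 24 h, and of Slc35b1 and Slc7a6 at 4 days off ended.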
